A study of Arabidopsis thaliana with 22 samples.

Results

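The comparison described here set the phytochrome quintuple mutant phyABCDE against the quadruple mutant phyABDE over every light condition in which both were grown. Its members were 16 of the 22 arrays of the series, 8 of each mutant, chosen by their genotype labels and by no measured value. Both lines are in the Arabidopsis accession Landsberg erecta (Ler), and both lack the phytochromes A, B, D and E. The quintuple mutant also lacks phytochrome C, which is the labelled difference between the lines. RNA came from whole seedlings, grown for 4 days after 4 days of cold darkness at 4 °C and 3 h of white light. Each line was measured in 3 arrays of seedlings kept in darkness, 3 arrays of seedlings grown under continuous red light of 50 µmol per square metre and second (R50), and 2 arrays of dark-grown seedlings given 2 h of that red light (DR2h). Wild type Ler, with 4 dark and 2 R50 arrays, was left out of the comparison and served to show on which side of the mutants it lay, and in 1 alternative fit over all 22 arrays. The labels name no second line of either genotype, so the loss of phytochrome C and any other way in which these lines differ cannot be told apart.

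Phytochromes are the red and far-red light receptors of plants. Red light converts them to an active form that enters the nucleus, removes the PIF transcription factors and so turns the seedling from growth in darkness to leaf and chloroplast development. They also act in the imbibed seed, where they promote germination through gibberellin. Phytochrome C depends on other phytochromes for much of its stability in Arabidopsis and is known mainly for a modest share in red light responses.

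Expression was measured on Affymetrix ATH1 arrays, which carry sets of short probes for about the whole gene set of the plant, and values are given as log2 of the deposited intensity. Array medians lay between 5.33 and 5.49 on this scale, and the lowest correlation between any 2 mutant arrays of the same line and light was 0.989. Of 22746 probe sets tested, 13513 have 1 named gene here and 8730 have no gene named here. A gene counts as measured here only if a probe set names it alone. Listed genes that are not counted as measured may still lie among the other probe sets of the array. The transcripts of the 5 phytochromes are not analysed here, so the genotype labels were not checked against them. Markers of seedling organs gave no firm check of the tissue label either, since levels of different probe sets depend on the probes: the antenna gene LHCB4.2 had a median of 8.72 in phyABCDE and 9.38 in phyABDE, and the root hair genes EXPA7 and EXPA18 and the seed coat gene BAN had line means between 2.91 and 3.97. Both measures of RNA integrity overlapped between the lines. The 3′ minus 5′ difference of the GAPDH control probes ran from -0.03 to 0.43 in phyABCDE and from 0.07 to 0.53 in phyABDE, and that of actin from 3.15 to 3.80 and from 3.13 to 3.41. One further property did separate arrays. An embryo level was taken per array by averaging the log2 values of 24 LEA, storage and oil body genes, and it was lowest in the phyABDE dark replicate 1 (6.09) and R50 replicate 1 (5.41), while the other 6 phyABDE arrays lay between 7.29 and 8.28.

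With the light condition held as a term, the lines differed at 3785 of 22746 probe sets (16.6%) at an adjusted p under 0.05. Of the called probe sets 2079 have 1 named gene, and 1636 have no gene named here. phyABCDE was higher at 2033 (8.94%) and lower at 1752 (7.7%). Most of these differences were small, with a median size of 0.39 on the log2 scale, and 275 reached 2-fold, 187 higher and 88 lower. That count was 138 with an offset of 16 added to the intensities before the log and 181 with the embryo level as a covariate. Centring each array on its own median left 3959 calls, 1595 higher and 2364 lower, so the balance between both directions depends on a scaling step. The medians of the embryo, heat shock, plastid and nuclear photosystem lists described below kept their direction under that step and under quantile normalization. Treating the dark and R50 arrays of one line and replicate number as 1 sample, 3 against 3, an alternative chosen after seeing the data, gave 1080 calls, of which 1054 were also called with the same sign over all 16 arrays.

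A stricter description asks for no overlap, so that all 8 arrays of one line lie above all 8 of the other. This held for 604 probe sets (2.66% of those tested), 362 higher and 242 lower in phyABCDE. A further condition of at least 2-fold left 154 probe sets (0.677%), 99 higher and 55 lower, of which 87 have 1 named gene. Single genes below were ranked only among probe sets with 1 named gene. The largest difference among these was a fall. JAL33, a jacalin-related lectin of the family of sugar-binding proteins that is abundant in Brassicaceae seedlings, was measured at 5.28, 5.94 and 6.44 (lowest, median and highest of 8 arrays) in phyABCDE and at 9.67, 9.97 and 10.37 in phyABDE. The gap between the lines was wider than the range within either of them, and wild type lay with phyABDE at 9.74 to 10.27. The fitted difference was -4.08 ± 0.11 (log2 ± SE, adjusted p = 1.3e-14), or 16.9-fold.

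Another lectin of this family moved the other way. JAL22, another jacalin-related lectin, was at 10.06, 10.22 and 10.63 in phyABCDE and at 8.66, 8.98 and 9.43 in phyABDE, again without overlap, and rose by 1.26 ± 0.10 (adjusted p = 1.1e-07). Of 4 genes with a jacalin name in the annotation used, 1 rose and 1 fell, beside 8.43% of all genes higher and 7.05% lower. Family members without such a name are not in this count. JAL34 (-0.11 ± 0.08) and JAL23 (0.12 ± 0.08) did not pass the test, and JAL23 was dim, with line means of 2.71 and 2.59. On the list of jacalin lectins and nitrile specifiers, which holds JAL33 but not JAL22, 4 of 14 genes were measured, of which 2 fell and 0 rose. These were JAL33 and AT1G52000, listed as JAL5, which fell by 0.51 ± 0.14 (adjusted p = 0.020). AT1G52000 differed by -0.05 in darkness, -1.04 under R50 and -0.41 after DR2h.

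Next in size among the falls were 2 genes of chromosome 5 known here only by locus code. AT5G16980 was at 3.02, 3.29 and 3.72 in phyABCDE against 5.41, 5.90 and 7.08 in phyABDE (-2.70 ± 0.15, adjusted p = 1.6e-09), and AT5G35940 at 3.12, 3.76 and 4.17 against 5.92, 6.46 and 6.78 (-2.64 ± 0.13, adjusted p = 2.3e-10). In both cases the phyABCDE arrays lay in the dim range of the array and every phyABDE array lay above them. AT3G14240 (-1.79 ± 0.12), AT1G15010 (-1.71 ± 0.19), AT5G19240 (-1.69 ± 0.13), AT3G09160 (-1.67 ± 0.16) and AT5G52810 (-1.61 ± 0.10) followed, each without overlap. The remaining 4 of the 12 largest falls were plastid genes, described below. All 12 kept their call under every alternative tried.

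The largest rise was that of AT5G23830, which was at 6.32, 6.93 and 8.24 in phyABCDE and at 2.82, 3.04 and 3.16 in phyABDE. The phyABDE values sat close together near the bottom of the scale, where wild type also lay (2.94 to 3.28), and all 8 phyABCDE arrays were far above them (3.94 ± 0.19, adjusted p = 1.5e-10, 15.3-fold). AT5G15420 had the same form, at 5.09, 6.07 and 6.48 against 2.68, 3.20 and 3.48 (2.80 ± 0.15, adjusted p = 6.0e-10). So did LUL1, a RING-type ubiquitin ligase of the LOG2-LIKE family, at 5.15, 5.27 and 5.60 against 3.09, 3.20 and 3.31 (2.11 ± 0.07, adjusted p = 1.8e-13). Since these transcripts were dim in phyABDE, their fold changes are ratios of measured values, background included. AT4G38080 (1.90 ± 0.23), AT4G18975 (1.88 ± 0.11) and AT5G27990 (1.86 ± 0.09) also rose without overlap.

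AT4G19730 differed from this pattern because its own arrays disagreed. It was at 10.68 in phyABCDE R50 replicate 2 and at 10.20 in DR2h replicate 1, while the other 6 phyABCDE arrays lay between 4.22 and 6.59 and the phyABDE arrays between 2.83 and 3.48. Its difference of 3.49 carried the largest error among the 12 largest rises, 0.71, and it lost its call in the 3 against 3 alternative. AT5G38020 was likewise uneven, at 4.06 to 8.12 in phyABCDE and 3.05 to 4.23 in phyABDE (1.83 ± 0.45, adjusted p = 0.0098), and the lines overlapped.

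Among rises of genes with a known product, PIP, a proline iminopeptidase that releases proline from the start of peptides, was at 8.06, 8.52 and 8.75 in phyABCDE and at 6.47, 6.73 and 6.92 in phyABDE. No array of one line reached the range of the other, and the difference was 1.72 ± 0.10 (adjusted p = 9.7e-10). The subtilisin-like protease gene SBT3.12 was at 5.03, 5.53 and 6.37 against 3.64, 3.82 and 3.90 (1.82 ± 0.14, adjusted p = 5.6e-08), and here wild type lay at 5.08 to 5.90, with phyABCDE. HIS1-3, a linker histone H1 variant known for its induction by drought and abscisic acid, was at 7.17, 8.09 and 8.36 against 4.90, 6.52 and 7.14 (1.68 ± 0.24, adjusted p = 1.5e-04). The defensin gene PDF2.1 (1.68 ± 0.39, adjusted p = 0.0070) and the MADS-box gene AGL67 (1.83 ± 0.37, adjusted p = 0.0024) rose with overlap between the lines. Both were lowest in a phyABDE array of low embryo level, and with that level as a covariate they differed by 0.22 (PDF2.1) and 0.47 (AGL67) without a call. Of the 12 largest rises 8 kept their call under every alternative.

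**Figure D1:**
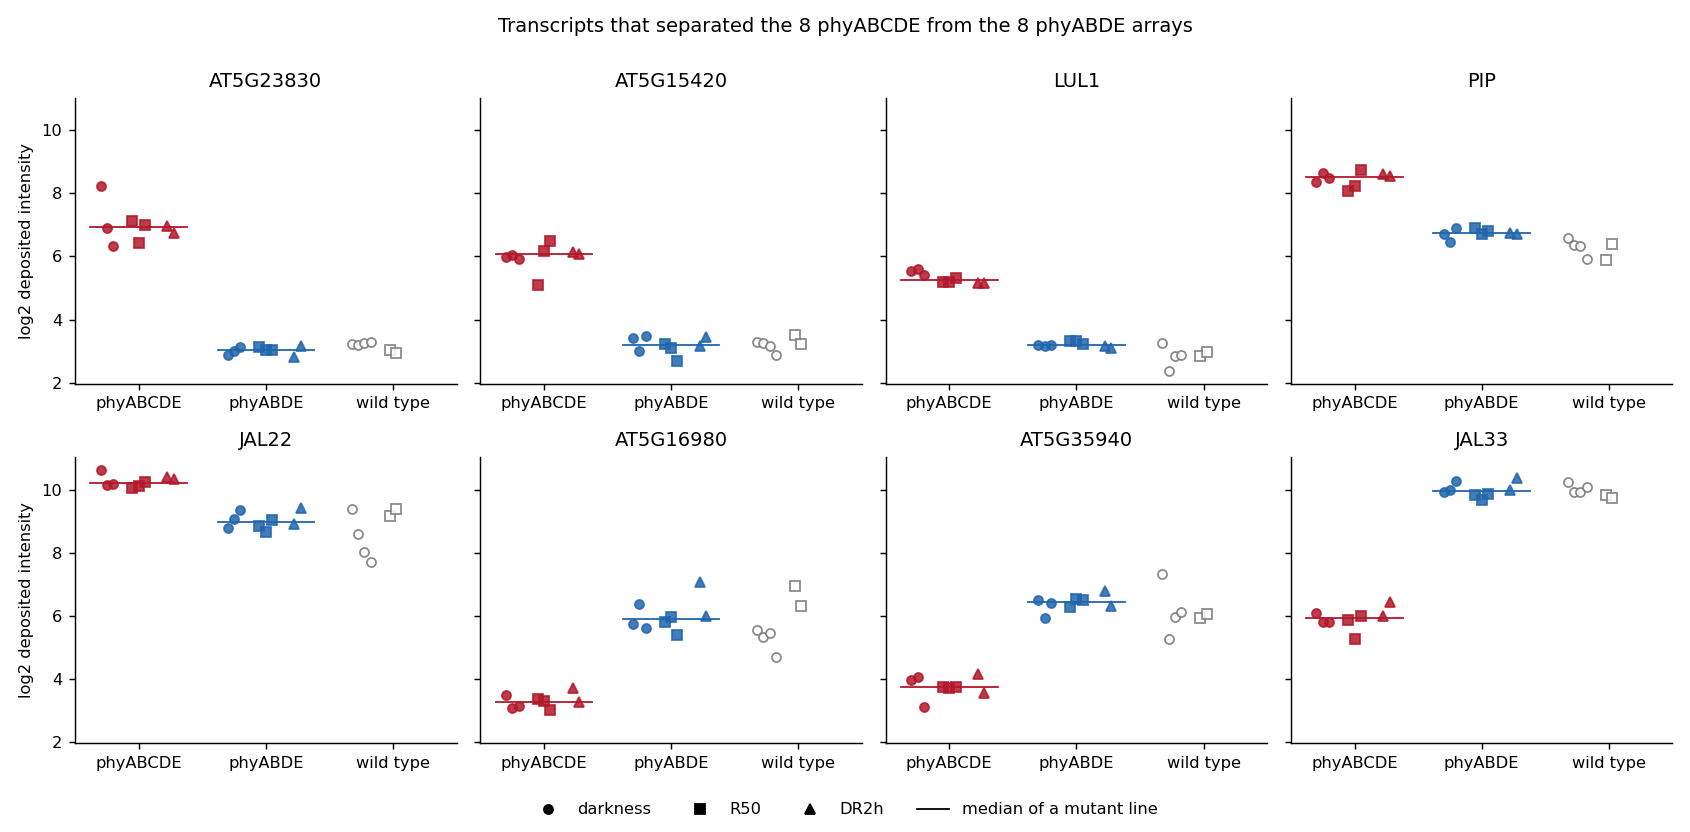
Log2 deposited intensity of 8 transcripts on each array, with the 8 phyABCDE arrays in red, the 8 phyABDE arrays in blue and the 6 wild-type arrays in open grey. Circles are darkness, squares R50 and triangles DR2h, and the line is the median of a mutant. In every panel the arrays of both mutants form separate bands whatever the light, as for JAL33 at 5.28 to 6.44 against 9.67 to 10.37.

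The comparison was also made within each light condition. Tested within darkness alone, 572 probe sets differed (2.51% of those tested), within R50 1026 (4.51%) and after DR2h 326 (1.43%), the last with only 2 arrays a line. Of the 572 called in darkness 567 had the same sign under R50 and 563 after DR2h, that is 99.1% and 98.4%, against 65.1% and 63.5% over all probe sets tested. These contrasts use separate arrays, but dark and R50 arrays of the same line and replicate number deviated together from their group means, with correlations of 0.11 to 0.48 in the 6 pairs, so they are not independent. Calls shared by all 3 conditions numbered 169, and 330 of the 572 were also called under R50 (57.7%). The counts depend on single arrays. In darkness they fell to 257 without phyABDE replicate 1, to 285 without phyABDE replicate 3 and to 360 without phyABCDE replicate 2. Under R50 they fell to 434 without phyABDE replicate 3, to 572 without phyABDE replicate 2 and to 530 without phyABCDE replicate 3. After DR2h they fell to 117 and 97 without phyABCDE replicate 1 or 2, and to 103 and 159 without phyABDE replicate 1 or 2.

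A test of whether the difference of the lines varied with light, limma's F-test over both interaction terms, called no probe set (0.0%). At an unadjusted p under 0.05 it held 744 probe sets, or 3.27%, and the smallest adjusted p was 0.999. JAL33 differed by -4.18 in darkness, -4.07 under R50 and -3.96 after DR2h, and AT5G23830 by 4.15, 3.79 and 3.85. The light terms come from the additive fit that gave the line term, not from the interaction fit. Taken over both lines, they called 165 probe sets for R50 against darkness (0.725%) and 21 for DR2h against darkness (0.0923%). The line term called 3785, but it compares all arrays and each light term only part of them. The counts therefore differ in power and do not compare the sizes of line and light effects.

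**Figure D2:**
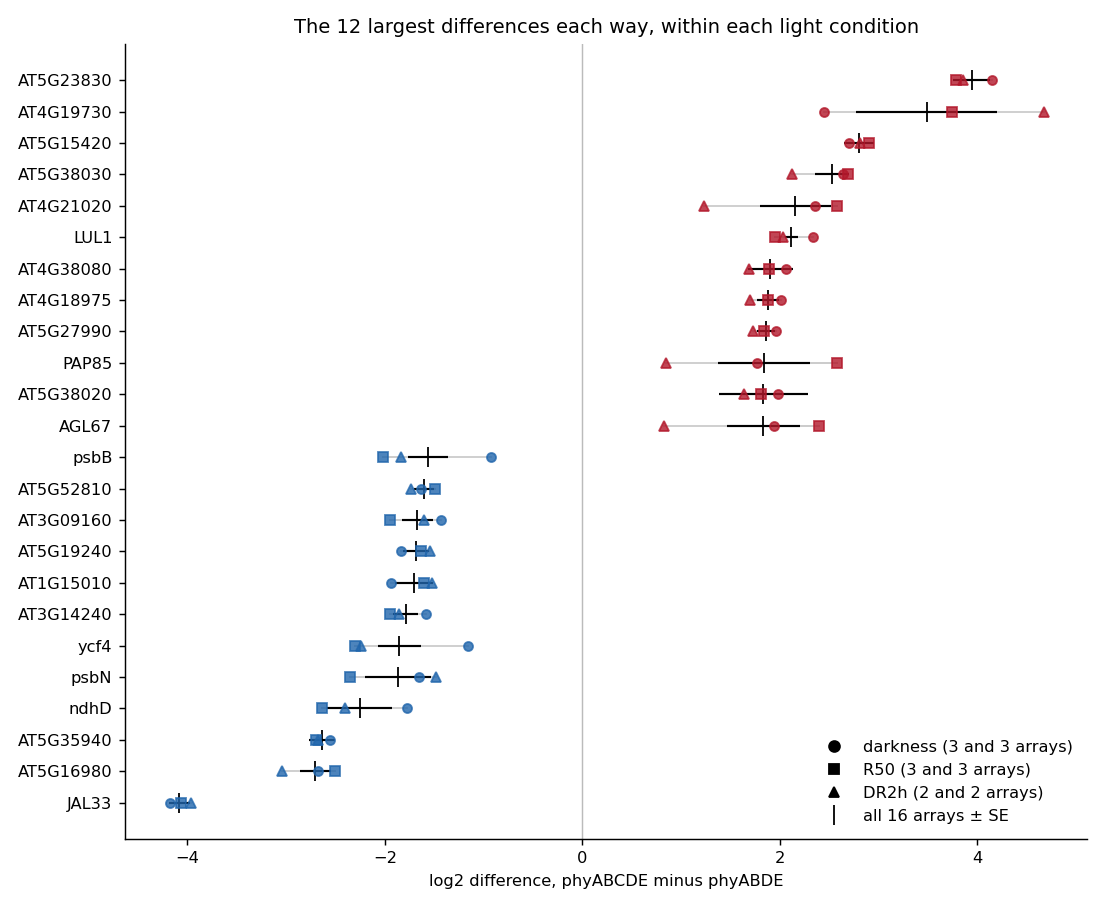
Log2 difference, phyABCDE minus phyABDE, of the 12 largest rises (red) and 12 largest falls (blue) among called probe sets with 1 named gene. Circles, squares and triangles give the difference within darkness, R50 and DR2h, and the black mark with its bar the fit over all 16 arrays ± SE. JAL33 keeps nearly 1 value over the conditions (-4.18, -4.07 and -3.96), whereas AT4G21020, PAP85 and AGL67 lie lowest after DR2h and psbB and ycf4 are least negative in darkness.

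Genes of seed maturation had the largest median among the lists that rose. Late embryogenesis abundant (LEA) proteins protect the drying embryo and normally disappear after germination. Of 17 measured LEA genes 12 rose and 0 fell, with a median difference of 1.35, beside 8.43% of all 13355 genes higher and a median of -0.02 over these genes. AT4G21020 of this list was at 7.47, 8.26 and 8.73 in phyABCDE and at 3.58, 6.15 and 7.36 in phyABDE, with no overlap (2.16 ± 0.36, adjusted p = 4.8e-04). LEA18 was at 10.55, 10.84 and 11.38 against 8.01, 9.75 and 10.60, where the brightest phyABDE array reached into the range of phyABCDE (1.35 ± 0.27, adjusted p = 0.0024). AT3G02480 (1.64 ± 0.33) and AT1G47980 (1.24 ± 0.20) rose too. The 5 LEA genes that were not called ran from -0.15 to 1.11.

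Seed storage and oil body genes were higher too. Of 7 measured 4 rose and 0 fell, beside 8.43% of all genes higher, with a median of 1.34, and the other 3 ran from 0.10 to 0.67. PAP85, a vicilin-like storage protein of the embryo, was at 11.42, 11.99 and 12.19 in phyABCDE and at 6.59, 10.75 and 11.40 in phyABDE (1.84 ± 0.46, adjusted p = 0.011). The lines only just failed to overlap, and wild type was far lower, at 3.53 to 6.21. The storage genes AT4G36700 (1.34 ± 0.26), AT2G28490 (1.64 ± 0.44) and AT1G03890 (1.68 ± 0.47) also rose. None of 3 genes of reserve mobilisation was called: ICL of the glyoxylate cycle was at 0.16 ± 0.10, the oil body lipase SDP1 at -0.18 ± 0.09 and AIM1 of fatty acid oxidation at -0.01 ± 0.06.

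The embryo level of each array shows which arrays carried this difference. It lay between 8.10 and 8.96 in phyABCDE, between 5.41 and 8.28 in phyABDE and between 4.17 and 5.89 in wild type. Both mutants were thus above every wild-type array except that the phyABDE R50 replicate 1 lay inside the wild-type range. After DR2h the lines were close, at 8.38 and 8.90 in phyABCDE and 8.20 and 8.28 in phyABDE, and the median difference of LEA genes was 0.48 there, against 1.79 in darkness and 1.51 under R50. Without the phyABDE dark replicate 1 and R50 replicate 1, 11 of the 17 LEA genes rose. With the embryo level as a covariate, which is built from these same genes, 2 LEA and 0 storage genes were called and their medians were -0.035 and 0.087. Over all probe sets that fit called 1669, with 1019 of them higher. Of the 1669, 1487 were also called with the same sign without the covariate. In bulk seedlings more cells of a type and more RNA per cell cannot be told apart.

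**Figure D3:**
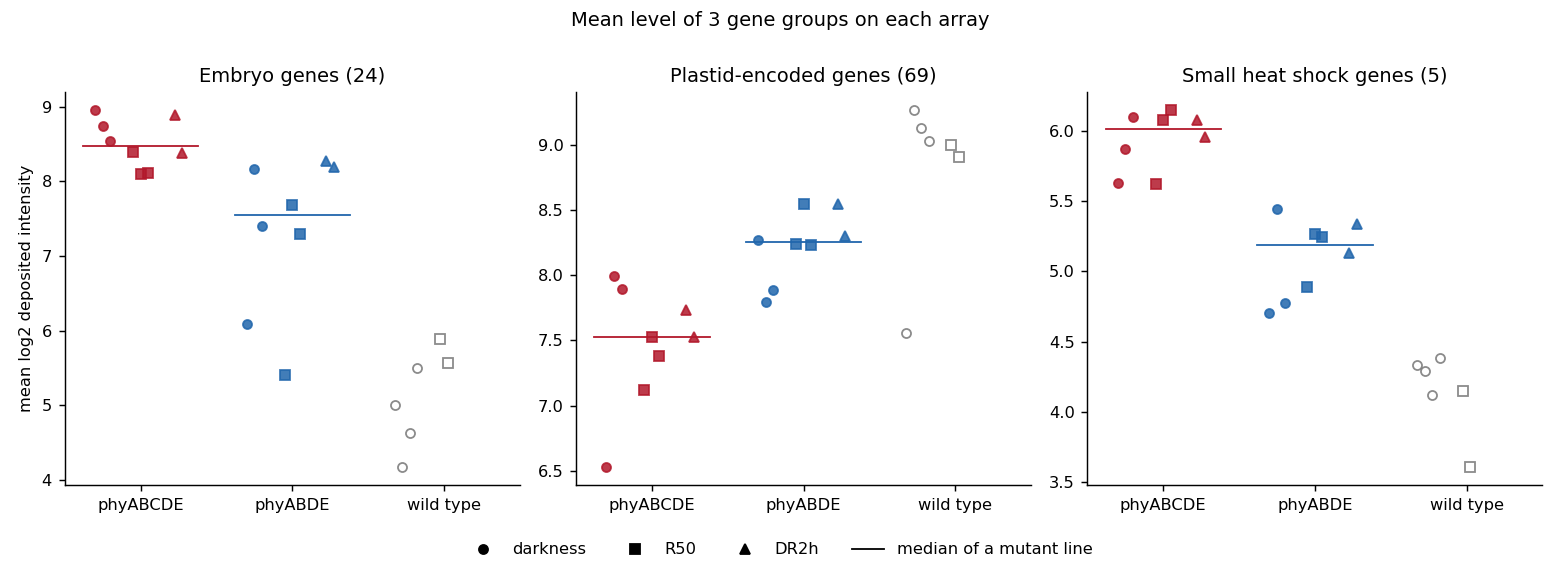
Mean log2 deposited intensity per array of 24 embryo genes, 69 plastid-encoded genes and 5 small heat shock genes, by line (red phyABCDE, blue phyABDE, open grey wild type) and light (circles darkness, squares R50, triangles DR2h), with the median of each mutant as a line. Embryo levels spread from 5.41 to 8.28 in phyABDE, whereas heat shock levels of the mutants do not overlap (5.62 to 6.15 against 4.71 to 5.44).

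Small heat shock proteins, chaperones that hold unfolded proteins in stressed tissue and in the maturing seed, were higher in phyABCDE. All 5 measured members rose, beside 8.43% of all genes higher, with a median of 0.65. AT1G53540 of this list was at 4.56, 5.54 and 5.70 in phyABCDE and at 2.93, 3.69 and 4.16 in phyABDE, with no overlap (1.73 ± 0.20, adjusted p = 1.4e-05), and wild type lay at 2.63 to 3.55. The others ranged from 0.41 to 0.83, among them ATHSP22.0 at 0.55 ± 0.10 (adjusted p = 0.0015). Of 6 genes annotated with heat shock or its co-chaperones, 1 of which is also on the first list, 4 rose and 0 fell. Hop3, which links the chaperones HSP70 and HSP90, rose by 1.27 ± 0.16 (adjusted p = 4.0e-05) and AT5G48570, a peptidyl-prolyl isomerase also named ROF2, by 1.09 ± 0.13 (adjusted p = 1.8e-05), both without overlap.

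The heat shock medians were 0.83 in darkness, 0.72 under R50 and 0.59 after DR2h. Across the 8 arrays of a line, which share their line and differ in light, the heat shock level and the embryo level correlated at -0.42 in phyABCDE and at 0.72 in phyABDE. With the embryo level as a covariate 2 of the 5 genes were called, and the list median was 0.50. Over all 22746 probe sets that fit called 1019 higher, against 2033 in the main fit.

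Lists of plastid-encoded transcripts had the lowest medians. Whether the labelling kit takes up plastid and mitochondrial transcripts as it does nuclear ones was not tested. The values of organelle genes given here are therefore differences in probe signal, which need not follow the amount of transcript. The plastid genome carries genes of the photosystems, the cytochrome b6f complex, the ATP synthase, the NDH complex of cyclic electron flow, ribosomal proteins and its own RNA polymerase. Of 69 such genes measured 39 fell and 0 rose, a share of 56.5% beside 7.05% of all genes lower, with a median of -0.76. By 33 genes of photosynthesis the count was 24 lower with a median of -0.90, and by 10 NDH genes 5 lower with a median of -0.80.

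The values of single plastid genes show how far the lines stood apart. rbcL, the large subunit of RuBisCO, was at 8.65, 9.27 and 9.91 in phyABCDE and at 10.24, 10.34 and 10.83 in phyABDE, with no overlap (-1.13 ± 0.16, adjusted p = 1.4e-04). ycf4, needed to assemble photosystem I, was at 4.31, 4.87 and 5.60 against 5.84, 7.04 and 7.29 (-1.86 ± 0.22, adjusted p = 1.5e-05). ndhD, an NDH subunit, was at 3.99, 5.14 and 6.04 against 5.46, 7.68 and 8.67, where phyABDE dark replicate 2 reached into the range of phyABCDE (-2.26 ± 0.33, adjusted p = 1.5e-04). Falls without overlap were also measured for petL of the cytochrome b6f complex (-1.51 ± 0.20) and for ndhE (-1.54 ± 0.18) and ndhG (-1.06 ± 0.13). The photosystem II genes psbN (-1.87 ± 0.33) and psbB (-1.57 ± 0.20) fell with some overlap. For rbcL wild type lay below every phyABDE array, at 8.21 to 9.98.

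Not every plastid gene moved, and the counts below stand beside 7.05% of all genes lower and 8.43% higher. Of 4 genes of the plastid RNA polymerase 2 fell, rpoC2 by 1.14 ± 0.25 (adjusted p = 0.0042) and rpoC1 by 1.12 ± 0.25 (adjusted p = 0.0053), and rpoA (-0.35 ± 0.22) and rpoB (-0.29 ± 0.10) did not pass. Of 15 ribosomal protein genes 3 fell, led by rpl20 at -1.53 ± 0.20 (adjusted p = 6.1e-05), with a median of -0.41 over the list. The photosystem II genes psbE, psbF, psbL and psbJ, singled out after their values were seen and known to be transcribed together, were not called (0.09, 0.18, -0.10 and 0.01). Mitochondrion-encoded transcripts, the other organelle set, held 16 measured genes, of which 2 rose and 1 fell with a median of 0.07. These mitochondrial counts are near the shares over all genes.

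The plastid level was set beside the embryo level. The mean level of the 69 genes ran from 6.53 to 7.99 in phyABCDE, with the lowest value in dark replicate 1, and from 7.79 to 8.55 in phyABDE. Its correlation with the embryo level over the 8 arrays of a line was -0.13 in phyABCDE and 0.01 in phyABDE. These are too few arrays, of 3 light conditions, to tell how the levels relate. The median difference was -0.53 in darkness, -1.02 under R50 and -0.77 after DR2h. With the embryo level as a covariate 10 of the 33 photosynthesis genes were called with a list median of -0.72, and in the 3 against 3 alternative also 10, with a median of -0.84. Over all 22746 probe sets these fits called 650 and 492 lower, against 1752 in the main fit. The embryo level itself differed between the lines (8.10 to 8.96 against 5.41 to 8.28), so the covariate also takes up part of the line difference. Wild type did not settle a side: its dark replicate 1 had a level of 7.55 and the other 5 wild-type arrays had 8.91 to 9.26. Per the series text these 5 were labelled with another kit than dark replicate 1 and the mutants, whereas the sample labels give the same kit for all arrays, and the series text was followed.

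**Figure D4:**
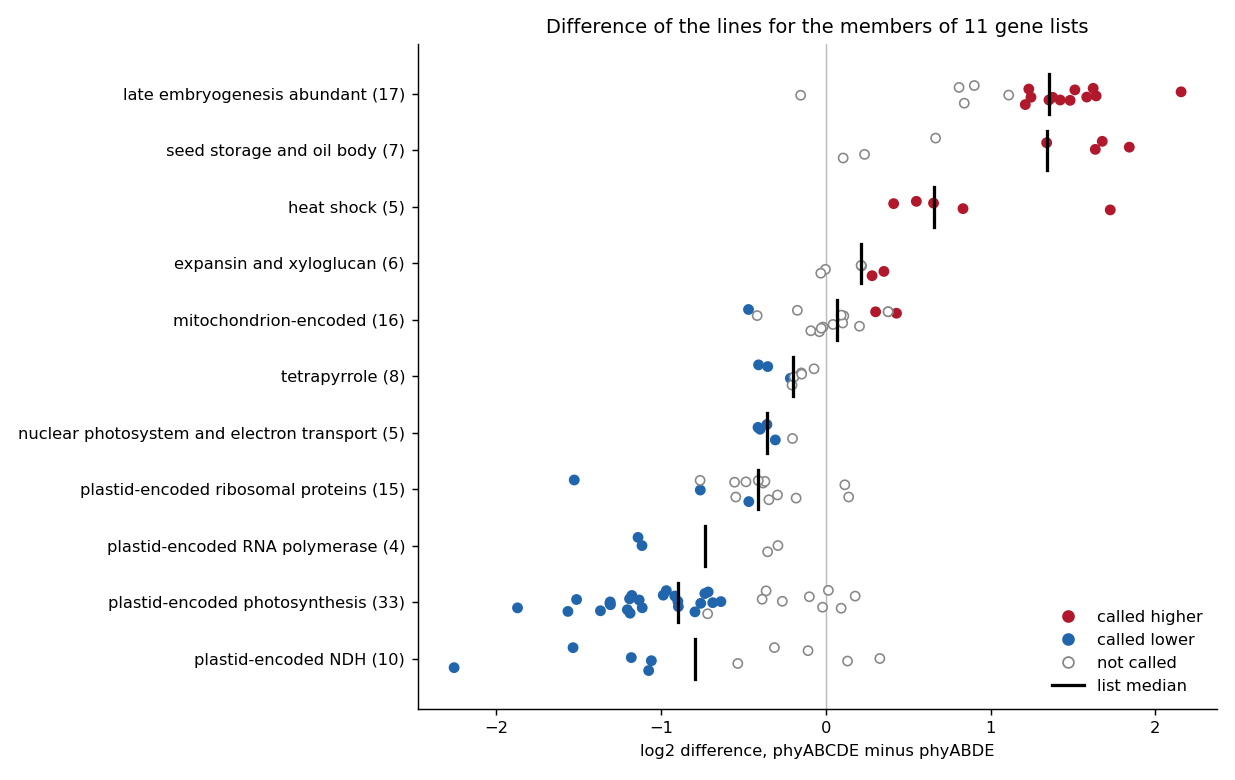
Log2 difference, phyABCDE minus phyABDE, of each measured member of 11 gene lists (number measured in brackets), filled red where called higher, filled blue where called lower and open grey where not called, with the list median as a bar. Medians of the embryo and heat shock lists lie to the right of 0 and those of the plastid lists to the left, while mitochondrion-encoded genes scatter around 0. Single members lie on the other side, such as 1 LEA gene at -0.15 and NDH genes up to 0.33.

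Nuclear genes of photosynthesis fell by less. Of 28 listed photosystem and electron transport genes 5 were measured, and 4 of these fell, beside 7.05% of all genes lower. The median of the 5 was -0.36, against -0.02 over all genes. PSBW, a photosystem II subunit, was at 10.07, 10.20 and 10.52 in phyABCDE and at 10.26, 10.61 and 10.98 in phyABDE, with overlapping arrays (-0.36 ± 0.07, adjusted p = 0.0023), and PSAN of photosystem I fell by 0.41 ± 0.12 (adjusted p = 0.023). The count of 4 fell to 1 without phyABDE DR2h replicate 2 or phyABDE R50 replicate 3, and to 2 without phyABDE dark replicate 1, phyABDE dark replicate 3 or phyABCDE R50 replicate 1. PSAN lost its call without phyABDE dark replicate 3, R50 replicate 3 or DR2h replicate 2, at -0.35 to -0.38.

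Of 20 listed antenna genes 3 were measured. LHCB4.2 alone was called, at 7.86, 8.72 and 8.96 against 8.60, 9.38 and 10.24 (-0.83 ± 0.17, adjusted p = 0.0024). LHCB4.1 (-0.25 ± 0.09) and LHCB4.3 (-0.29 ± 0.18) did not pass. Of 22 listed genes of chlorophyll and haem synthesis 8 were measured and 3 fell, beside 7.05% of all genes lower, with a median of -0.20. HEME1, a uroporphyrinogen decarboxylase, fell by 0.41 ± 0.11. CHLM, which methylates magnesium protoporphyrin, fell by 0.35 ± 0.09, and PORB, which reduces protochlorophyllide in the light, by 0.22 ± 0.06. PORB lost its call without both phyABDE arrays of low embryo level (-0.20). All 3 measured of 19 listed genes of carbon fixation, RCA, PRK and SBPASE, lay below 0 without a call (-0.22 ± 0.09, -0.18 ± 0.09 and -0.32 ± 0.11).

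Few listed genes of light signalling had a probe set with 1 named gene. None of the 3 measured of 20 listed shade-induced and PIF genes was called, with the auxin repressor IAA29 at -0.14 ± 0.10, the homeodomain gene HAT2 at 0.07 ± 0.07 and FHL, a nuclear import partner of phytochrome A, at 0.10 ± 0.08. HYH, a bZIP factor and the 1 measured of 20 listed light signalling genes, was at -0.15 ± 0.10. None of 3 flavonoid and anthocyanin genes (-0.13 to -0.04) or of 2 abscisic acid genes (COR15A at -0.10 and COR47 at 0.25) was called. Most of these were dim. Line means were 3.72 and 3.87 for HYH, 3.26 to 3.83 for the flavonoid genes and 3.03 and 3.13 for COR15A. A difference could be missed at such levels. The median 95% half-width of a line difference over all probe sets, not adjusted for their number, was 0.18. A call after adjustment can need a larger difference, and COR47 was not called at 0.25. Of 3 measured clock-related genes, of 16 listed, AT4G33980 rose (0.74 ± 0.13, adjusted p = 7.9e-04), beside 8.43% of all genes higher. This gene was lowest, like the embryo genes, in the phyABDE R50 replicate 1 (5.14). GID1A, a gibberellin receptor, was the 1 called of 4 measured gibberellin genes, of 25 listed (0.38 ± 0.10, adjusted p = 0.016). It lost its call without both phyABDE arrays of low embryo level (0.27), with the embryo level as a covariate (0.066) and in the 3 against 3 alternative (0.46).

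Of 19 genes of the expansin and xyloglucan list 6 were measured and 2 rose, beside 8.43% of all genes higher. EXPA4 rose by 0.35 ± 0.09 (adjusted p = 0.015) and EXPA9 by 0.28 ± 0.09 (adjusted p = 0.049). EXPA9 lost its call in 21 of 32 alternatives, often on leaving out 1 array. PYK10, a beta-glucosidase stored in endoplasmic reticulum bodies, fell by 0.32 ± 0.06 (adjusted p = 0.0014). It was the 1 called of 2 measured glucosinolate genes, of 14 listed, beside 7.05% of all genes lower. Among markers of cell types the root hair expansin EXPA7 fell by 0.32 ± 0.09 (adjusted p = 0.021). EXPA7 was dim, with line means of 3.33 and 3.65, and its call was lost in 5 of the 31 alternatives that measured it. Its difference was -0.05 in darkness, -0.53 under R50 and -0.41 after DR2h. The guard cell gene FMA rose by 0.25 ± 0.08 (adjusted p = 0.035), a call lost in 15 of the 31 alternatives that measured it. EXPA18 (-0.11 ± 0.15), the stomatal genes SPCH (0.12 ± 0.10) and MUTE (0.14 ± 0.11) and the seed coat gene BAN (-0.01 ± 0.09) were not called.

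Wild type gave a point outside both mutants. The dark wild-type array that has the kit of the mutants per the series text was nearer to the mean of phyABDE at 51.3% of all probe sets tested and at 57.4% of those called. For the 154 probe sets without overlap and at least 2-fold apart it was nearer to phyABDE at 99 (64.3%), at 64 of the 99 higher and 35 of the 55 lower ones. All 6 wild-type arrays were nearer to phyABDE at 73 and all 6 nearer to phyABCDE at 19, and for the others the wild-type arrays were split. JAL33, AT5G23830 and PIP were of the first kind and SBT3.12 of the second. Per the series text this rests on 1 array of the same kit and 5 of another, which the sample labels do not show.

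The called genes were not spread evenly over the chromosomes. Among genes represented by their brightest probe set, 20.3% were called on chromosome 5 (606 of 2981) against 15.3% over the 5 nuclear chromosomes, and the other chromosomes held 10.4% (chromosome 2) to 16.3% (chromosome 3). Genes without overlap between the lines made up 3.89% on chromosome 5 against 2.49% over all nuclear chromosomes. In the locus order of named nuclear genes, neighbours that were all called formed 14 runs of 4 or more, with 61 of 13216 genes. How many runs a share of 15.3% called would give by itself was not worked out. The order left out 8730 probe sets with no gene named here, so neighbours may have other measured genes between them. The longest run had 6 genes, from AT3G05180 to AT3G05260, all higher. The last of them, AT3G05260 (1.45 ± 0.47, adjusted p = 0.044), lost its call in 19 of 32 alternatives, and it was at 5.60 in its lowest phyABDE array.

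Neighbours in these runs did not always move together. On chromosome 5 the run of AT5G16960, AER, AT5G16980 and AT5G16990 held falls and a rise side by side. AER, an alkenal reductase that detoxifies reactive aldehydes, fell by 0.48 ± 0.09, AT5G16980 fell by 2.70 ± 0.15, and AT5G16990 was at 7.71, 7.93 and 8.10 in phyABCDE against 6.12, 6.46 and 6.77 in phyABDE (1.49 ± 0.10, adjusted p = 1.0e-08). Another run of the same chromosome rose throughout, from AT5G37980 (0.53 ± 0.10) over AT5G37990 and AT5G38020 to AT5G38030, which was at 5.03, 5.33 and 6.73 against 2.75, 3.03 and 3.13 (2.53 ± 0.18, adjusted p = 2.2e-08). On chromosome 3 the run of 5 genes that begins with ACT11, an actin gene, held 1 rise and 4 falls, with ACT11 at 5.58, 5.91 and 6.17 against 6.56, 6.88 and 7.26 (-1.02 ± 0.08, adjusted p = 8.9e-08). Windows of 25 neighbouring genes held a median of 16% called, and the highest share was 52%, between AT3G04890 and AT3G05260. The window with the most genes without overlap, 6 of 25, lay between AT5G18940 and AT5G19350.

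**Figure D5:**
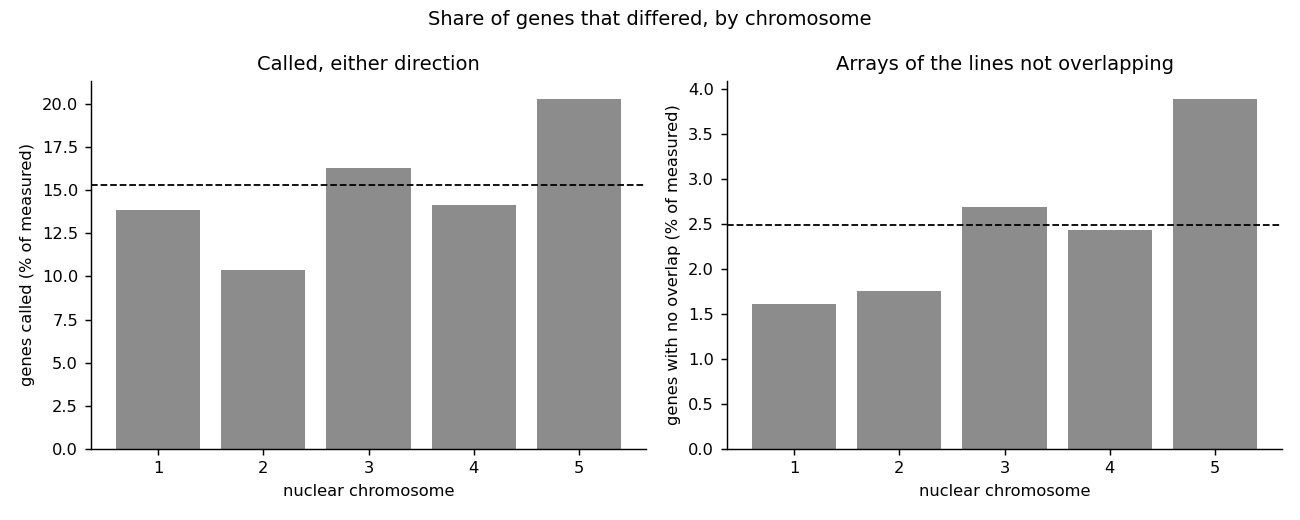
Share of measured genes called in either direction (left) and share whose arrays did not overlap between the lines (right), by nuclear chromosome, with the share over all 5 chromosomes as a dashed line. Chromosome 5 stands highest in both, at 20.3% and 3.89%.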

How the data were processed

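Per the labels' protocols, total RNA was labelled with a 3′ IVT kit in all 16 mutant arrays. The authors deposited 1 linear intensity per probe set and array. Per the submitters' processing notes RMA, GCOS and limma were used, without version or role, and their order and settings were not given in the sources used here. The log2 of each deposited value was analysed with no further normalization. Of 22810 probe sets 64 controls were left out. Names came from the platform annotation and RefSeq (TAIR10.1), with 13436 probe sets matched, and genes with several probe sets were represented by the brightest.

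The line term was fitted with limma 3.58.1 in R 4.3.3 (lmFit and eBayes, light as a term, 12 residual degrees of freedom). Differences within a condition and the interaction came from 6 group means (10 residual degrees of freedom), with Benjamini-Hochberg adjustment over 22746 probe sets and a threshold of 0.05. The fits were tested on simulated data. Tables were made with pandas 2.3.3 and numpy 2.4.6 and plots with matplotlib 3.10.9, under Python 3.11.15.

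Genes were named by rule: of the called ones, the 12 that rose most and the 12 that fell most, the 8 largest each way with a symbol, at most 4 members of each list by smallest p, and members of runs of neighbouring called genes. Other genes are said to be chosen after their values were seen. The members, 22 lists (420 genes, 129 measured) and tests were chosen with earlier results of these data known, and 6 lists were added from the annotation. No set test was run. Each group has 2 to 4 arrays, which limits the precision.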

Additional observations from a re-analysis of the deposited data

Results flagged for a closer look

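In 5 cases a value lay apart from the other 7 arrays of their line, with a gap above Dixon's 95% critical share of the range for 8 samples. In phyABCDE dark replicate 1, AT5G23830 was at 8.24 (others 6.32 to 7.14), AT5G38030 at 6.73 (others 5.03 to 5.76) and AT1G15010 at 5.19 (others 6.32 to 7.10). In phyABCDE R50 replicate 1, AT5G15420 was at 5.09 (others 5.93 to 6.48). In phyABDE dark replicate 3, AT5G27990 was at 4.76 (others 5.12 to 5.35). The check covered 74 sets of 8 arrays, and chance flags about 1 in 20. In each of these genes the lines still did not overlap.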

How the results depend on the processing

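Of 130 genes called and examined, 53 kept their direction and call under every one of 32 alternatives that measured them, and no call turned its sign except 4 under the embryo covariate: the dehydrin-type gene LEA (-0.028), AT2G28490 (-0.086), AT1G03890 (-0.16) and AT3G05260 (-0.39), with the median of LEA genes at -0.035. The median of mitochondrion-encoded genes turned to -0.23 over probe sets with a mean log2 above 5. The count of 3785 became 2241 with dark and R50 arrays only, 2032 over probe sets with 1 gene, 1669 with the embryo covariate, 1080 with averaged arrays and 275 at 2-fold or more, and 3078 to 3818 leaving out single arrays.

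Over all probe sets the fit with the embryo covariate called 1019 higher and 650 lower, and that with averaged arrays 588 and 492. The main fit called 2033 and 1752, so list counts fell together with the calls over all probe sets. With the embryo covariate, which also takes up part of the line difference, 2 LEA, 0 storage, 1 photosystem, 2 heat shock and 10 plastid photosynthesis genes were called. The medians of LEA and storage genes then lay near 0 (-0.035 and 0.087), and those of photosystem, heat shock and plastid photosynthesis genes at -0.25, 0.50 and -0.72, against -0.36, 0.65 and -0.90. With averaged arrays the counts were 3, 1, 1, 2 and 10, and 3 for NDH, with medians of 1.62, 1.70, -0.39, 0.68, -0.84 and -0.81. Photosystem genes numbered 2 without a light term and 2 without both phyABDE arrays of low embryo level, heat shock 3 with dark and R50 arrays only, NDH 3 under the intensity filter and storage 2 with trended robust variances. Leaving out single arrays gave 9 to 14 LEA, 4 to 5 storage, 4 to 5 heat shock, 1 to 4 photosystem, 24 to 27 plastid photosynthesis and 5 to 7 NDH genes, and 257 to 673 calls in darkness, 434 to 1165 under R50 and 97 to 391 after DR2h. The 154 separated probe sets became 81 with an offset of 16. Where no cause is named, the cause was not tested.

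Replicate numbers showed no pairing of the lines in darkness or under R50, where deviations of equal numbers correlated at -0.16 to 0.06. After DR2h the value was 0.27. With 2 arrays a line both replicates give the same value, so whether numbers pair the lines there cannot be told. With the replicate block 3745 probe sets were called, 3562 of them shared. Within a line dark and R50 arrays of 1 number correlated at 0.11 to 0.48, and DR2h arrays correlated with these at -0.33 to 0.10. A random block of line by replicate number over all 3 conditions had a consensus correlation of -0.0072 and gave 3843 calls, so it did not take up the correlation of dark and R50 arrays.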
